A study of Homo sapiens with 14 samples.

Results

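The genes described here are 50 genes of DNA replication and S phase, the part of the cell cycle in which a cell copies its genome. They were chosen by name for their known roles, with earlier results of these data known. They were sorted into 9 groups by role, and all 50 were found among the 60587 genes of each deposited table. The pellets in which they were measured are cartilage made in culture from the established human line WA01 (H1), derived from an embryo, with chondrogenic medium. Whole-pellet RNA was sequenced at 3 days of culture, with 4 libraries at day 21, 5 at day 30 and 5 at day 45. All groups share the cell line and the medium, no group was left untreated, and the labels name no genotype other than that of the line, which is a single source of cells. The comparisons were between days, and they ask how the pellets differ between these stages of differentiation.

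Depth was 18183776 (day 30 replicate 2) to 33660704 (day 45 replicate 1) expected counts a library. For 1 library the labels conflict: the treatment field of day 45 replicate 1 reads 30 days, while its title, followed here, says day 45. Among the day 30 libraries, replicates 3, 4 and 5 differed from replicates 1 and 2 in a trend with transcript length: the rank correlation of a gene's deviation in the library with its effective length was -0.43, -0.52 and -0.47, against -0.01 and -0.07 in replicates 1 and 2 and 0.12 to 0.26 in the libraries of the other days. Counts of calls are also given with replicates 1 and 2 as the only day 30 libraries, as are those genes printed for every library whose call changed there. The labels do not say that replicates are separate cultures, so p-values measure the spread between these libraries, which may be technical. After a filter on low counts 17838 genes were tested, the 50 among them. A gene is said to have risen or fallen where the Benjamini-Hochberg adjusted p of edgeR's quasi-likelihood test, adjusted over all genes tested, was below 0.05. Levels within a gene are given as CPM, depth-scaled counts after TMM normalisation of the libraries, and levels of different genes are set against each other in TPM, which accounts for transcript length.

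A cell copies its DNA once per division. The origin recognition complex, CDC6 and CDT1 load rings of MCM2 to MCM7 onto DNA in G1. CDC45, the GINS complex and MCM10 then turn each ring into an active helicase. Polymerases alpha, delta and epsilon copy the strands, and the sliding clamp PCNA holds polymerases delta and epsilon on the DNA. Replication protein A covers the bare strand, and ribonucleotide reductase supplies the nucleotides. Transcription of most of these genes rises at the border of G1 and S under the E2F transcription factors. In growth cartilage, division belongs to the proliferating chondrocytes and stops as the cells enlarge.

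The replication genes were high at day 21, lowest at day 30 and partly back by day 45. Of the 50 genes, 48 fell and 1 rose at day 30 against day 21, with a median log2 fold change of -1.41, where 27.1% of all genes tested fell, 27.2% rose (54.4% called) and the median was 0.02. Between day 45 and day 30, 38 rose and 1 fell, with a median of 0.56, where 27.6% of all genes tested rose, 28.7% fell (56.3% called) and the median was -0.04. At day 45 against day 21, 41 were still lower, 1 was higher and 8 did not pass, with a median of -0.89, where 30.5% of all genes tested were lower, 27.1% were higher (57.7% called) and the median was -0.05. The 3 comparisons share libraries, so their values stand side by side and are not independent of each other. By mean CPM, 44 of the 50 genes were highest at day 21, 1 at day 30 and 5 at day 45, and 48 were lowest at day 30.

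The summed TPM of the 50 genes was 1331, 1446, 1597 and 1548 in the day 21 libraries, 484.5, 429.3, 473.9, 466.6 and 531 in the day 30 libraries, and 787.6, 667.9, 621.2, 774.2 and 629 in the day 45 libraries. The 3 days did not overlap in this sum. The means were 1480 ± 118 TPM at day 21 (SD, n = 4), 477.1 ± 36.6 TPM at day 30 (SD, n = 5) and 696 ± 79.7 TPM at day 45 (SD, n = 5). Of all counts, the 50 genes took 0.1715% to 0.1968% (day 21), 0.04704% to 0.07545% (day 30) and 0.06717% to 0.08468% (day 45). In whole pellets, fewer cells in S phase and less of each transcript per cell cannot be told apart.

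**Figure D1:**
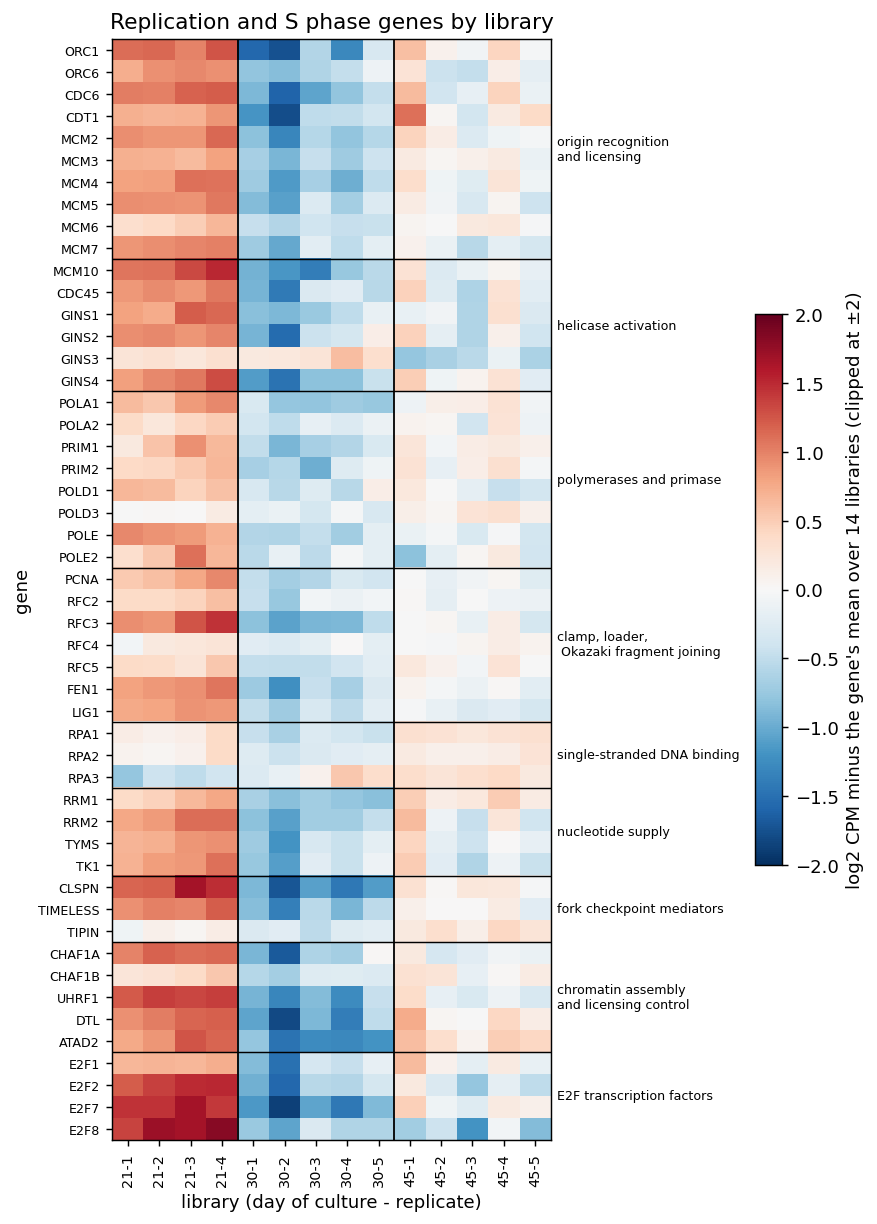
Level of each of the 50 genes (vertical axis, by role) in each of the 14 libraries (horizontal axis, day of culture and replicate), as log2 CPM minus the mean of the gene over all libraries, with red above and blue below that mean. The day 21 columns are red for most genes and the day 30 columns blue, RPA3 is lowest at day 21, and GINS3 is lowest at day 45.

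The change over the later interval differed from that over the earlier one for 49 of the 50 genes. The later change (day 45 minus day 30) minus the earlier change (day 30 minus day 21) was above 0 for 48 of them and below 0 for GINS3, and RPA3 did not pass. The GINS3 value of -0.91 ± 0.21 (edgeR adjusted p = 0.00151) did not pass on log2(TPM + 1) in limma (-0.30, adjusted p = 0.34), with day 45 replicate 1 placed at day 30 (-0.59, edgeR adjusted p = 0.158) or with day 30 replicates 1 and 2 alone (-0.67, adjusted p = 0.0677). RPA3 gave -0.49 ± 0.24 (adjusted p = 0.0979), and 0.21 with an offset for effective length. Here and below, that offset is each library's smoothed trend of log2 CPM deviations over the mean effective length of genes. It is not the effective length of a gene in each library. Among all genes tested 25.3% were called above 0 and 27.5% below (52.7% called). The libraries were also compared with no model. At day 30 against day 21, all later libraries were below all earlier ones for 47 genes, where this held for 22.4% of all genes tested. Between days 45 and 30 all later libraries were above all earlier ones for 28 genes, against 19.8% of all genes tested. All day 45 libraries were below all day 21 libraries for 38 genes, against 26.2% of all genes tested.

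The label conflict and the length trend bear on these counts. With day 45 replicate 1 placed at day 30, 12 of the 50 genes rose at day 45 against day 30 (median 0.34). In that fit 3036 of all 17838 genes tested rose (median -0.03). Without that library 32 rose (median 0.52), beside 4718 of all 17787 genes tested (median -0.03). With day 30 replicates 1 and 2 as the day 30 group, 46 genes fell and 0 rose at day 30 against day 21 (median -1.81). At day 45 against day 30, 45 rose and 1 fell (median 0.84). Of all 18509 genes tested there, 4012 fell and 3633 rose in the former comparison, and 3628 rose and 3564 fell in the latter. Leaving out day 45 replicate 1 as well left 44 higher, beside 3484 of all 18471 genes tested, a fit added after the data were seen. On log2(TPM + 1), where the libraries have no TMM scaling, the median of all genes tested was -0.34 at day 45 against day 21 and -0.35 at day 30 against day 21. Relative to those medians the replication genes had medians of -0.81 and -1.31, and relative to the TMM medians -0.84 and -1.43. On that scale limma called 2147 of all genes tested higher and 8722 lower at day 45 against day 21, where edgeR called 4836 and 5448, and 1788 higher and 9019 lower at day 30 against day 21, where edgeR called 4858 and 4838.

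**Figure D2:**
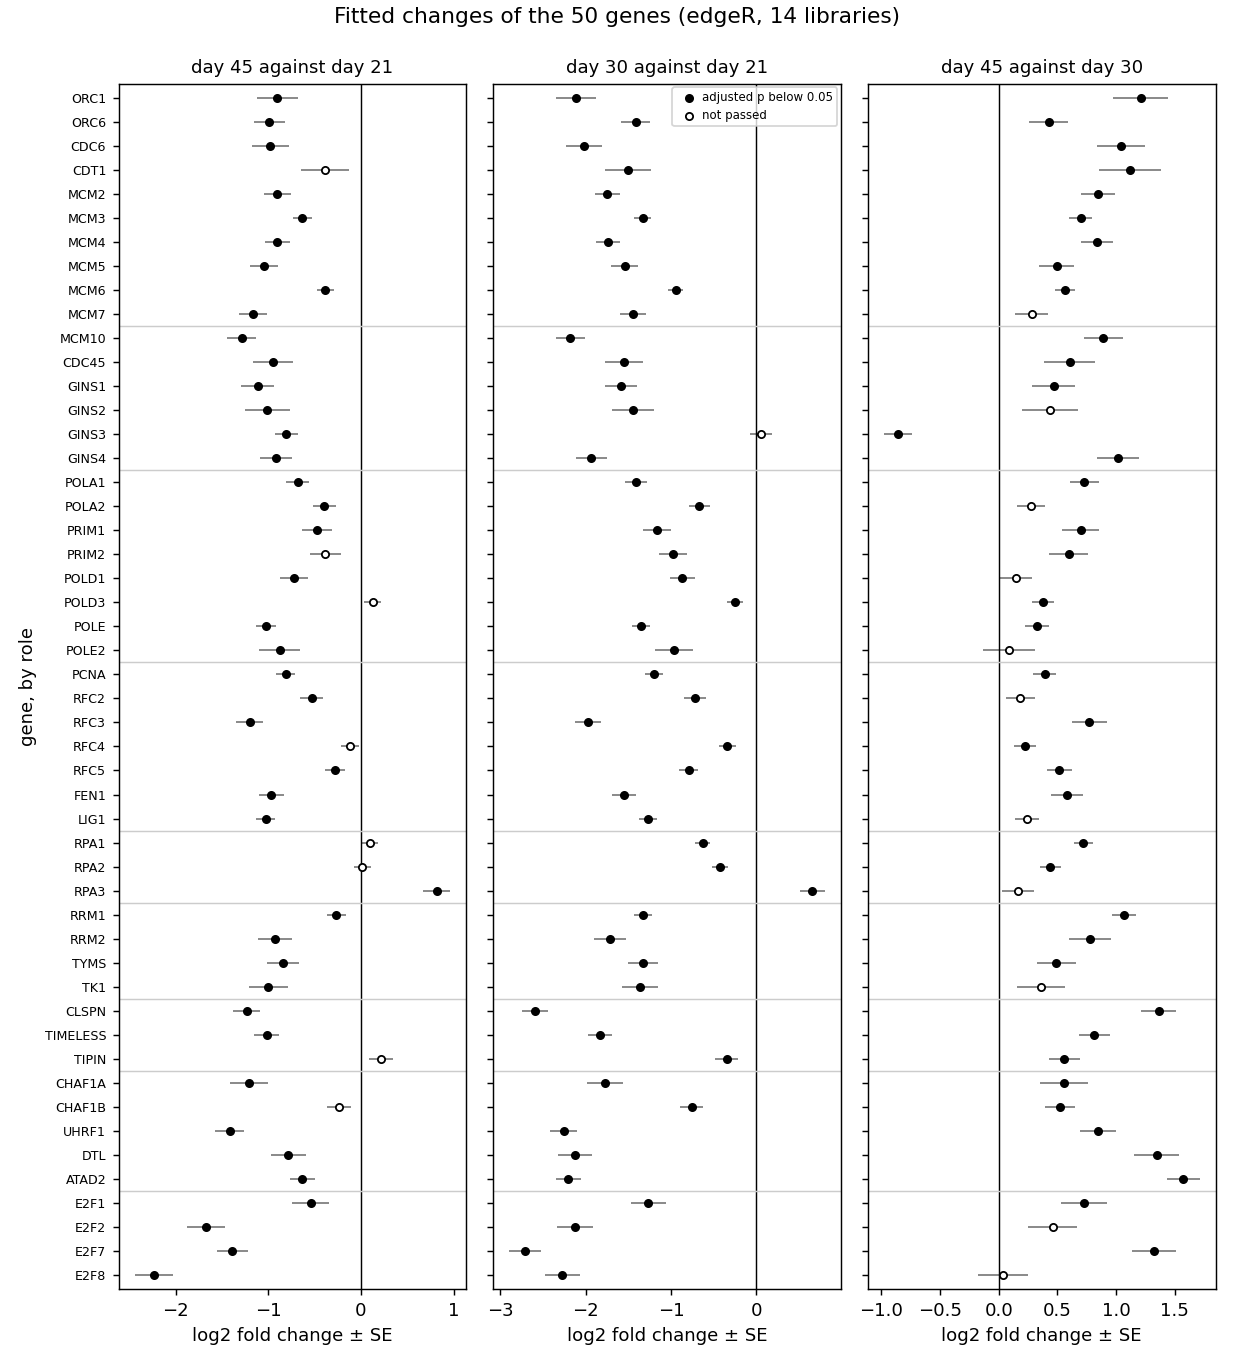
Fitted log2 fold change of each of the 50 genes (points, with lines for ± SE) in the 3 comparisons, with genes listed by role. Filled points have an adjusted p below 0.05: 41 lie below 0 at day 45 against day 21, 48 lie below 0 at day 30 against day 21, and 38 lie above 0 at day 45 against day 30.

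Promoters of these genes are shown because E2F factors bind upstream of many of them and the genes moved together. RefSeq promoters (GRCh38.p14, 250 bases before to 50 after the RefSeq start of the gene) were found for 42 of the 50 genes, 54 promoters in all. They were searched on both strands for 4 E2F-type words, TTTCCCGC, TTTCGCGC, TTTGCCGC and TTTGGCGC, which may overlap each other. Of the 42 genes, 23 had a match (54.8%), against 3.99% of the 27305 genes in the table and 3.32% of all 35116 promoters of the same length. CCAAT on either strand was present in 33 of the 54 promoters, against 34.6% of all promoters. The CHR words TTTGAA and TTCGAA, known from promoters of mitotic genes, were present in 2 of the 54, against 16.4% of all promoters. The stretches below lie upstream of both the RefSeq start and the gene span of GENCODE 29 and are written 5′ to 3′ along its strand, with E2F-type matches in capitals.
E2F1 (chr20:33686405-33686445, minus strand): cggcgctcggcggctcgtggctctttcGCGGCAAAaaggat
MCM6 (chr2:135876444-135876608, minus strand): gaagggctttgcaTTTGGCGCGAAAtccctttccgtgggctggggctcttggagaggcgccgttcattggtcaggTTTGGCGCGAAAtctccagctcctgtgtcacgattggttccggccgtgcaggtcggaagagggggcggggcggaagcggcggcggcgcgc
PCNA (chr20:5126627-5126702, minus strand): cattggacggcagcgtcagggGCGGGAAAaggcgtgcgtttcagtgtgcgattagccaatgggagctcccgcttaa
E2F7 (chr12:77065581-77065669, minus strand): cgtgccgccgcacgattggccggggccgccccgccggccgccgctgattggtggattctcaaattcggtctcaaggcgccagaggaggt

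E2F1 and PCNA have 1 match each in the stretches shown, and the MCM6 stretch repeats the run TTTGGCGCGAAA, in which a match on each strand overlaps. The E2F7 stretch has none of the 4 words, though E2F7 had the largest fall at day 30 of the 50 genes. The 23 genes with a match had median log2 fold changes of -1.41 at day 30 against day 21, 0.56 at day 45 against day 30 and -0.88 at day 45 against day 21. The 19 genes searched without a match had medians of -1.36, 0.60 and -0.91 in the same comparisons. No test was made between these sets. A match is a run of letters in this window and says nothing of binding in the pellets.

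Of the 10 genes of origin recognition and licensing, all 10 fell at day 30 against day 21 (median -1.53), 9 rose at day 45 against day 30 (median 0.77), and 9 were lower at day 45 than at day 21 (median -0.90). ORC1 and ORC6 are subunits of the origin recognition complex, and CDC6 and CDT1 bring the helicase rings to it. MCM7, a subunit of the ring with its highest mean TPM at days 21 and 30, is ENSG00000166508 (chromosome 7, 100092728 to 100101940, minus strand in GRCh38). It had 93.4, 96.6, 100 and 103 CPM in the day 21 libraries, 31, 25.1, 43.7, 35.8 and 44.5 CPM in the day 30 libraries, and 54, 46.1, 34.5, 44.3 and 40 CPM in the day 45 libraries. All day 21 libraries were high, and those of days 30 and 45 overlapped. MCM7 fell by 1.45 ± 0.15 on the log2 scale at day 30 against day 21 (SE; edgeR adjusted p = 5.26e-07) and by 1.17 ± 0.15 at day 45 against day 21 (adjusted p = 3.27e-06), while day 45 against day 30 gave 0.28 ± 0.14 (adjusted p = 0.104). That comparison passed without day 30 replicate 3 (adjusted p = 0.05, just under the threshold), day 30 replicate 5 (0.0359) or day 45 replicate 3 (0.0465) and with day 30 replicates 1 and 2 alone (0.63, adjusted p = 0.00303).

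The loading factors shared the fall and the return. At day 30 against day 21, ORC1 fell by 2.11 ± 0.24, CDC6 by 2.02 ± 0.21 and CDT1 by 1.51 ± 0.27 on the log2 scale. At day 45 against day 30 they rose by 1.21 ± 0.23, 1.04 ± 0.20 and 1.12 ± 0.26. None of these rises passed with day 45 replicate 1 placed at day 30. The rises of MCM2, MCM4, MCM5 and ORC6 did not pass there either, and those of MCM3 and MCM6 did. The ORC6 rise (0.43 ± 0.17, edgeR adjusted p = 0.0384) also ended without any 1 of day 30 replicates 1, 2, 3 and 4 or day 45 replicates 1 and 4. It did not pass on log2(TPM + 1) in limma. CDT1 had 110 to 285 counts in the day 45 libraries and 27 to 105 in those of day 30. It was the 1 licensing gene that did not pass at day 45 against day 21 (-0.39 ± 0.26, edgeR adjusted p = 0.206), with 11.2 CPM in day 45 replicate 1 and 4.04 to 6.8 CPM in the other day 45 libraries. Without day 45 replicate 1, CDT1 was called lower in that comparison. Of the ring subunits, MCM2, MCM3, MCM4 and MCM5 fell by 1.33 (MCM3) to 1.75 (MCM2) at day 30. MCM6 fell least, by 0.94 ± 0.09, and it gave -0.38 ± 0.09 at day 45 against day 21 (edgeR adjusted p = 0.00129).

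Within the ring the shares of the subunits shifted, although the protein ring holds the subunits in equal number. MCM6 made up 11.3% ± 0.466 of the summed TPM of MCM2 to MCM7 at day 21 (SD, n = 4), 17.4% ± 1.79 at day 30 and 15.4% ± 2.05 at day 45 (SD, n = 5 each). MCM7 made up 30.5% ± 1.57 at day 21, 28.3% ± 3.23 at day 30 and 23.0% ± 1.85 at day 45. The highest MCM6 share at day 21 was 11.9%, below the lowest at day 30 (15.7%) and at day 45 (12.8%). The exons of MCM2 share 1158 of 4902 bases with TPRA1 and AC023593.1 on the opposite strand, and those of MCM7 share 392 of 4386 with AP4M1, and reads of such bases cannot be assigned because the library kit does not mark the strand.

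**Figure D3:**
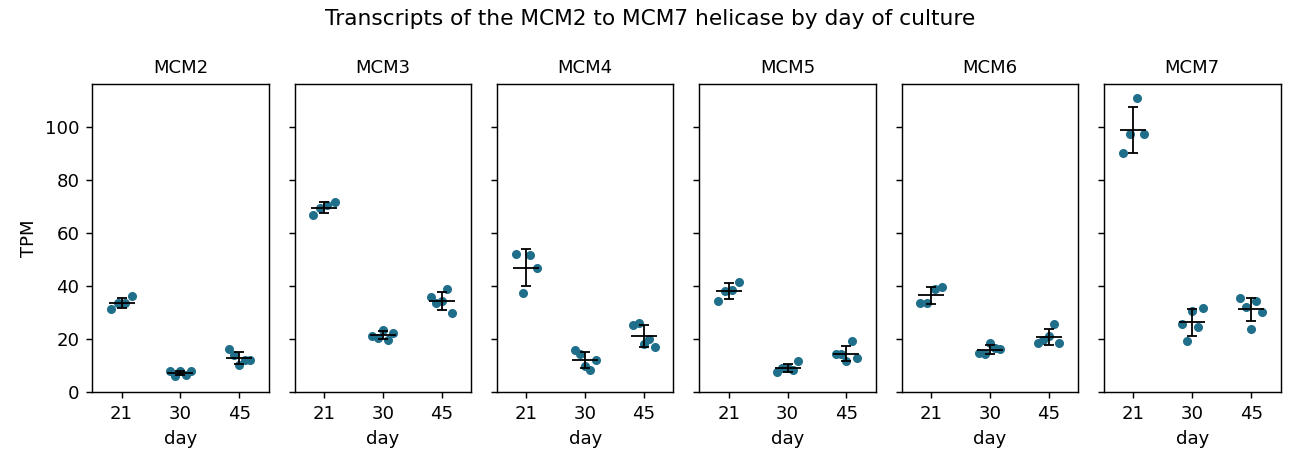
TPM of MCM2 to MCM7 by day of culture, with a point per library (4 at day 21, 5 at day 30, 5 at day 45) and a bar at the mean ± SD. For all 6 genes the day 21 points lie above those of days 30 and 45, and the day 45 means lie between those of days 21 and 30.

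Of the 6 genes of helicase activation, 5 fell at day 30 against day 21, 4 rose and 1 fell at day 45 against day 30, and all 6 were lower at day 45 than at day 21 (median -0.98). MCM10 (ENSG00000065328, chromosome 10, 13161554 to 13211104, plus strand), which helps to start the helicase, had 12.2, 12.4, 14.6 and 16.4 CPM at day 21, 3.02, 2.59, 2.22, 3.42 and 4 CPM at day 30, and 7.1, 4.8, 5.29, 6.05 and 5.19 CPM at day 45. The 3 days did not overlap. MCM10 fell by 2.18 ± 0.17 at day 30 against day 21 (edgeR adjusted p = 1.95e-08) and rose by 0.89 ± 0.16 at day 45 against day 30 (adjusted p = 0.00023). The later rise did not pass on log2(TPM + 1) in limma (0.48, adjusted p = 0.0802) or with day 45 replicate 1 placed at day 30 (0.51, edgeR adjusted p = 0.119).

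GINS3 departed from the other GINS subunits. It belongs to the GINS complex, a set of GINS1 to GINS4 that joins MCM2 to MCM7 and CDC45 in the moving helicase. GINS3 (ENSG00000181938, chromosome 16, 58295080 to 58406144, plus strand) had 14.1, 14.6, 13.8 and 14.8 CPM at day 21, 13.5, 13.7, 14.1, 18.1 and 14.9 CPM at day 30, and 6.95, 7.54, 8.15, 10.7 and 7.62 CPM at day 45. Days 21 and 30 overlapped, and all day 45 libraries were below both. GINS3 gave 0.05 ± 0.12 at day 30 against day 21 (edgeR adjusted p = 0.739), and it fell by 0.86 ± 0.12 at day 45 against day 30 (adjusted p = 1.74e-05). Its day 30 value was negative on log2(TPM + 1) in limma (-0.35, adjusted p = 0.0572) and, at -0.08, with day 30 replicates 1 and 2 alone, and neither passed.

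The other GINS genes followed the majority at day 30. GINS1 fell by 1.58 ± 0.19, GINS2 by 1.44 ± 0.25 and GINS4 by 1.93 ± 0.19 at day 30 against day 21, and GINS1 (0.47 ± 0.18) and GINS4 (1.02 ± 0.18) rose at day 45 against day 30. CDC45, the partner of GINS, fell by 1.55 ± 0.22 at day 30 and rose by 0.60 ± 0.22 at day 45 against day 30. None of the rises of GINS1, GINS4 and CDC45 passed with day 45 replicate 1 placed at day 30. The GINS1 rise also ended without any 1 of day 30 replicates 1, 2 and 3 or day 45 replicates 1, 2 and 4, and with an offset for effective length. The CDC45 rise also ended without any 1 of day 30 replicates 1 and 2 or day 45 replicates 1 and 4. GINS3 made up 29.8% ± 0.835 of the summed GINS TPM at day 21 (SD, n = 4), 60.5% ± 7.80 at day 30 and 33.6% ± 6.82 at day 45 (SD, n = 5 each). Its lowest share at day 30 was 49.2%, above its highest at day 21 (30.9%) and at day 45 (40.6%). Exons of GINS3 share 558 of 5105 bases with AC009118.2 on the opposite strand, and those of GINS4 share 1290 of 5475 with AC009630.1 and AC009630.2.

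The 8 genes of the polymerases and primase all fell at day 30 against day 21, with a median of -0.97. Then 5 rose at day 45 against day 30 (median 0.35), and at day 45 against day 21 6 were lower (median -0.58). POLD1 (ENSG00000062822, chromosome 19, 50384204 to 50418016, plus strand) encodes the catalytic subunit of polymerase delta. It had 31.5, 30.9, 27.1 and 29.9 CPM at day 21, 15.8, 13.6, 16.7, 13.5 and 21.9 CPM at day 30, and 23.1, 19.9, 17.6, 14.5 and 15.4 CPM at day 45. Days 30 and 45 overlapped below day 21. POLD1 fell by 0.87 ± 0.15 at day 30 against day 21 (edgeR adjusted p = 0.000101) and did not pass at day 45 against day 30 (0.15 ± 0.14, adjusted p = 0.399), a value that was negative on log2(TPM + 1) at -0.15 and at -0.05 with day 45 replicate 1 placed at day 30.

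POLE (ENSG00000177084, chromosome 12, 132623753 to 132687365, minus strand), the catalytic subunit of polymerase epsilon, showed the largest change of this group at day 45 against day 21. It had 64.6, 61.9, 59.4 and 53.8 CPM at day 21, 22.1, 21.8, 23.9, 20.5 and 29 CPM at day 30, and 30, 32, 26.8, 32.4 and 25.8 CPM at day 45. Day 30 replicate 5 overlapped the day 45 libraries, and all were below day 21. POLE fell by 1.35 ± 0.11 at day 30 (edgeR adjusted p = 2.94e-08) and gave -1.03 ± 0.11 at day 45 against day 21 (adjusted p = 3.03e-07). At day 45 against day 30 it rose by 0.32 ± 0.10 (adjusted p = 0.0133), but the value was -0.06 on log2(TPM + 1) (limma adjusted p = 0.759) and -0.04 with an offset for effective length (edgeR adjusted p = 0.79), so its direction depends on the scaling. The rise also did not pass with day 45 replicate 1 placed at day 30 (0.25, edgeR adjusted p = 0.112).

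The remaining polymerase genes spread from the accessory subunit POLD3 to the catalytic subunit of polymerase alpha, POLA1. POLD3 fell by 0.25 ± 0.10 at day 30 (edgeR adjusted p = 0.0351) and did not pass at day 45 against day 21 (0.12 ± 0.10, adjusted p = 0.277), while POLA1 fell by 1.41 ± 0.13 at day 30 and gave -0.68 ± 0.13 at day 45 against day 21. The call for POLD3 at day 30 ended without any 1 of day 21 replicates 2 and 4 or day 30 replicates 1, 3 and 5, under the replicate block, with day 45 replicate 1 placed at day 30, with day 30 replicates 1 and 2 alone and with the length offset. PRIM1 and PRIM2, the primase subunits that make the RNA primers, fell by 1.17 ± 0.16 and 0.98 ± 0.17 at day 30 and rose by 0.70 ± 0.16 and 0.60 ± 0.16 at day 45 against day 30. Neither rise passed with day 45 replicate 1 placed at day 30. PRIM2 did not pass at day 45 against day 21 (-0.38 ± 0.16, edgeR adjusted p = 0.0541). POLE2 had few reads, with 88 to 161 counts in the day 21 libraries, 29 to 44 in those of day 30 and 28 to 54 in those of day 45, and its fall at day 30 was 0.97 ± 0.22.

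Of the 7 genes of the clamp, the clamp loader and the joining of Okazaki fragments, 7 fell at day 30 against day 21 (median -1.20), 5 rose at day 45 against day 30 (median 0.39), and 6 were lower at day 45 than at day 21 (median -0.81). PCNA (ENSG00000132646, chromosome 20, 5114953 to 5126626, minus strand), the sliding clamp, had 54.4, 57.7, 64.9 and 73.6 CPM at day 21, 27.2, 23.6, 25.3, 30.7 and 28.9 CPM at day 30, and 37.8, 33.9, 35.8, 38.7 and 31.9 CPM at day 45. The 3 days did not overlap. PCNA fell to 0.434 times its day 21 level at day 30 (edgeR adjusted p = 7.52e-08) and rose by 0.39 ± 0.10 at day 45 against day 30 (adjusted p = 0.00329; 0.28, adjusted p = 0.0958, with day 45 replicate 1 placed at day 30). It gave -0.81 ± 0.10 at day 45 against day 21 (adjusted p = 3.34e-06).

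The clamp loader opens the clamp and sets it on DNA, and its small subunits moved unequally. RFC3 (ENSG00000133119, chromosome 13, 33818049 to 33966558, plus strand) had 11.7, 11.3, 14.6 and 16.7 CPM at day 21, 3.48, 2.92, 3.24, 3.27 and 4.31 CPM at day 30, and 6.12, 6.3, 5.55, 6.79 and 4.82 CPM at day 45. The days did not overlap. RFC3 fell by 1.97 ± 0.15 at day 30 (edgeR adjusted p = 1.95e-08) and rose by 0.77 ± 0.15 at day 45 against day 30 (adjusted p = 0.000335), and at day 45 it was at 0.435 times its day 21 level. RFC4 fell by 0.34 ± 0.10 at day 30 and did not pass at day 45 against day 21 (-0.12 ± 0.10, adjusted p = 0.319). Its rise at day 45 against day 30 (0.22 ± 0.09, adjusted p = 0.04995) ended in most fits that leave out 1 library. RFC5 gave -0.28 ± 0.11 at day 45 against day 21 (adjusted p = 0.036). That call ended without any 1 of day 21 replicates 1, 2 and 4 or day 45 replicates 2, 3 and 5. Neither these calls nor the later rise of RFC5 (0.52 ± 0.11) passed with day 45 replicate 1 placed at day 30. RFC3 made up 15.8% ± 2.18 of the summed TPM of RFC2 to RFC5 at day 21 (SD, n = 4), 6.81% ± 1.02 at day 30 and 9.10% ± 1.07 at day 45 (SD, n = 5 each). FEN1, the nuclease that trims Okazaki fragments, fell by 1.55 ± 0.14 at day 30 and rose by 0.58 ± 0.13 at day 45 against day 30. Its rise did not pass with day 45 replicate 1 placed at day 30. LIG1, the ligase that joins Okazaki fragments, fell by 1.27 ± 0.10 at day 30 and did not pass at day 45 against day 30 (0.24 ± 0.10, edgeR adjusted p = 0.0527).

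Replication protein A, the trimer that covers single-stranded DNA, has the subunits RPA1, RPA2 and RPA3. RPA1 and RPA2 fell at day 30 against day 21 and rose at day 45 against day 30, and neither passed at day 45 against day 21. RPA1 (ENSG00000132383, chromosome 17, 1829702 to 1900082, plus strand), the large subunit, had 69.4, 66.3, 68.6 and 80.9 CPM at day 21, 45.5, 39.8, 51.4, 48.4 and 45.7 CPM at day 30, and 77.7, 76.4, 72.7, 76 and 77.8 CPM at day 45. The day 45 libraries lay within the range of day 21, and day 30 lay below both. RPA1 fell by 0.63 ± 0.09 at day 30 (edgeR adjusted p = 1.33e-05), rose by 0.72 ± 0.08 at day 45 against day 30 (adjusted p = 2.48e-06) and gave 0.09 ± 0.09 at day 45 against day 21 (adjusted p = 0.37). The last value was -0.34 on log2(TPM + 1) (limma adjusted p = 0.00112), equal to the median of all genes on that scale. RPA2 gave 0.01 ± 0.09 at day 45 against day 21 (edgeR adjusted p = 0.911).

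RPA3, the small subunit, was the 1 gene of the 50 that was higher at days 30 and 45 than at day 21. RPA3 (ENSG00000106399, chromosome 7, 7636518 to 7718607, minus strand) had 6.36, 8.11, 7.66 and 8.3 CPM at day 21, 8.99, 9.78, 11.6, 15.8 and 13.8 CPM at day 30, and 13.8, 13, 13.7, 14.2 and 12.4 CPM at day 45. All day 21 libraries were low, and the day 45 libraries lay within the range of day 30. RPA3 rose by 0.66 ± 0.15 at day 30 against day 21 (edgeR adjusted p = 0.00128) and was 0.82 ± 0.15 higher at day 45 than at day 21 (adjusted p = 0.000139). The day 30 call ended with day 30 replicates 1 and 2 alone (0.29, adjusted p = 0.0937) and on log2(TPM + 1) (0.19, limma adjusted p = 0.159). Its effective length of 699 bases was the shortest of the 50 genes. With an offset for effective length the day 30 value was smaller, at 0.28, and passed (edgeR adjusted p = 0.0441). Day 45 against day 30 gave 0.16 ± 0.14 (adjusted p = 0.329), and it passed with that offset (0.49, adjusted p = 0.000668) and with day 30 replicates 1 and 2 alone (0.51, adjusted p = 0.00741). RPA3 made up 16.95% ± 1.18 of the summed RPA TPM at day 21 (SD, n = 4), 31.9% ± 3.71 at day 30 and 26.0% ± 1.45 at day 45 (SD, n = 5 each). Its exons share 188 of 3232 bases with UMAD1 and AC007161.3 on the opposite strand.

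The 4 genes of nucleotide supply all fell at day 30 against day 21 (median -1.35) and were all lower at day 45 than at day 21 (median -0.88), and 3 rose at day 45 against day 30. TYMS, thymidylate synthase (ENSG00000176890, chromosome 18, 657604 to 673578, plus strand), had 66.1, 67.4, 75.9 and 77.4 CPM at day 21, 25.2, 18, 33, 30.2 and 35.9 CPM at day 30, and 55.2, 36.3, 30.7, 41.4 and 36.6 CPM at day 45. Days 30 and 45 overlapped below day 21, and day 45 replicate 1 was the highest of day 45. TYMS fell by 1.33 ± 0.18 at day 30 (edgeR adjusted p = 8.47e-06) and rose by 0.49 ± 0.17 at day 45 against day 30 (adjusted p = 0.0198). That rise did not pass without day 45 replicate 1 (0.35, adjusted p = 0.0705) or with it placed at day 30 (0.14, adjusted p = 0.634). Of its 2470 exonic bases, 1150 are shared with TYMSOS and ENOSF1 on the opposite strand, so its level is uncertain.

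TK1, thymidine kinase (ENSG00000167900, chromosome 17, 78174075 to 78187233, minus strand), had 37, 40.9, 42.1 and 49.6 CPM at day 21, 13.5, 10.7, 19.6, 16.9 and 21.5 CPM at day 30, and 32.9, 19.6, 15.1, 21.5 and 16.9 CPM at day 45. All day 21 libraries were high and days 30 and 45 overlapped. TK1 fell by 1.36 ± 0.21 at day 30 (edgeR adjusted p = 4.49e-05), was at 0.5 times its day 21 level at day 45 (adjusted p = 0.000576), and did not pass at day 45 against day 30 (0.36 ± 0.20, adjusted p = 0.138; -0.07 with day 45 replicate 1 placed at day 30). That comparison passed with a higher value on log2(TPM + 1) in limma (0.51, adjusted p = 0.0278), with the offset for effective length (0.59, edgeR adjusted p = 0.0133) and with day 30 replicates 1 and 2 alone (0.79, adjusted p = 0.0366).

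RRM1 at day 45 was at 0.832 times its day 21 level. It encodes the large subunit of ribonucleotide reductase, the enzyme that makes deoxynucleotides, and is ENSG00000167325 (chromosome 11, 4094707 to 4138876, plus strand). RRM1 had 53.6, 56.8, 64.8 and 70.8 CPM at day 21, 26.4, 23, 25.4, 24.3 and 23.2 CPM at day 30, and 57.8, 45.5, 47.6, 58.6 and 46.3 CPM at day 45. Day 30 lay below all other libraries, and day 45 replicates 1 and 4 lay within the range of day 21. RRM1 fell by 1.33 ± 0.11 at day 30 (edgeR adjusted p = 2.84e-08) and rose by 1.06 ± 0.10 at day 45 against day 30 (adjusted p = 3.44e-07). Day 45 against day 21 gave -0.27 ± 0.10 (adjusted p = 0.038), a call that ended without any 1 of day 21 replicates 3 and 4, day 30 replicate 5, or day 45 replicates 2, 3 and 5 (adjusted p 0.0561 to 0.161), with no filter on low counts (0.0505), with day 45 replicate 1 placed at day 30 (0.313) and with the replicate block (0.0667). RRM2, the small subunit made in S phase, fell by 1.71 ± 0.19 at day 30 and gave -0.93 ± 0.18 at day 45 against day 21 (edgeR adjusted p = 0.000362). It rose by 0.78 ± 0.18 at day 45 against day 30, a rise that did not pass with day 45 replicate 1 placed at day 30.

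All 3 fork checkpoint mediators, which keep a stalled fork intact and pass on its signal, fell at day 30 against day 21 (median -1.83) and rose at day 45 against day 30 (median 0.81), and 2 were lower at day 45 than at day 21. CLSPN, claspin (ENSG00000092853, chromosome 1, 35720218 to 35769967, minus strand), had 17.3, 17.7, 24.5 and 21.6 CPM at day 21, 4.17, 2.36, 3.66, 2.88 and 3.58 CPM at day 30, and 9.58, 7.84, 9.07, 9.01 and 7.67 CPM at day 45. The 3 days did not overlap. CLSPN fell by 2.59 ± 0.15 at day 30 (edgeR adjusted p = 1.57e-09) and rose by 1.36 ± 0.15 at day 45 against day 30 (adjusted p = 1.6e-06). The later change exceeded the earlier one by 3.96 ± 0.28 on the log2 scale (adjusted p = 3.39e-08).

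TIMELESS (ENSG00000111602, chromosome 12, 56416373 to 56449403, minus strand) and its partner TIPIN bind the fork together. TIMELESS had 42.3, 45.1, 44.2 and 51.9 CPM at day 21, 12.4, 8.71, 15.5, 11.9 and 15.6 CPM at day 30, and 24, 22.5, 22.5, 25.2 and 19.1 CPM at day 45. Its days did not overlap. TIMELESS fell by 1.83 ± 0.14 at day 30 (edgeR adjusted p = 1.71e-08) and gave -1.02 ± 0.14 at day 45 against day 21 (adjusted p = 5.57e-06). TIPIN fell by 0.35 ± 0.13 at day 30 (adjusted p = 0.0373) and did not pass at day 45 against day 21 (0.21 ± 0.13, adjusted p = 0.177). The day 30 call of TIPIN ended without any 1 of day 21 replicates 2, 3 and 4 or day 30 replicates 1, 3 and 4, with no filter on low counts, under the replicate block, with day 45 replicate 1 placed at day 30 and with day 30 replicates 1 and 2 alone.

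Of the 5 genes of chromatin assembly and licensing control, all 5 fell at day 30 against day 21 (median -2.13), all 5 rose at day 45 against day 30 (median 0.84), and 4 were lower at day 45 than at day 21 (median -0.78). UHRF1 (ENSG00000276043, chromosome 19, 4903080 to 4962154, plus strand), which brings the maintenance DNA methyltransferase to new DNA, had 38.3, 42.6, 41.2 and 42.5 CPM at day 21, 8.53, 6.63, 8.94, 6.84 and 11.8 CPM at day 30, and 21.1, 14.6, 13.2, 15.2 and 13.1 CPM at day 45. The 3 days did not overlap. UHRF1 fell by 2.26 ± 0.16 at day 30 (edgeR adjusted p = 8.38e-09) and gave -1.42 ± 0.16 at day 45 against day 21 (adjusted p = 5.55e-07). Its rise at day 45 against day 30 (0.84 ± 0.15, adjusted p = 0.000212) did not pass with day 45 replicate 1 placed at day 30 (0.39, adjusted p = 0.227).

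ATAD2, a chromatin ATPase (ENSG00000156802), had the largest rise of the 50 genes at day 45 against day 30. It had 35.9, 39, 50.5 and 47.3 CPM at day 21, 12.4, 7.59, 8.8, 8.63 and 9.23 CPM at day 30, and 32.3, 26.8, 22.2, 29.7 and 28.2 CPM at day 45. Its days did not overlap. ATAD2 fell by 2.20 ± 0.15 at day 30 (edgeR adjusted p = 4.46e-09) and rose by 1.57 ± 0.14 at day 45 against day 30 (adjusted p = 1.65e-07), and it gave -0.63 ± 0.14 at day 45 against day 21 (adjusted p = 0.000853; -0.69, adjusted p = 0.128, with day 45 replicate 1 placed at day 30). DTL, a ligase subunit that has CDT1 destroyed in S phase, fell by 2.13 ± 0.20 at day 30 and rose by 1.34 ± 0.19 at day 45 against day 30. The rise of DTL did not pass with day 45 replicate 1 placed at day 30. CHAF1A and CHAF1B are subunits of the chromatin assembly factor that places histones on new DNA. CHAF1A gave -1.21 ± 0.21 at day 45 against day 21 (edgeR adjusted p = 7.48e-05), and CHAF1B did not pass (-0.24 ± 0.13, adjusted p = 0.121). At day 45 against day 30 CHAF1A rose by 0.56 ± 0.21 and CHAF1B by 0.52 ± 0.13. Neither rise passed with day 45 replicate 1 placed at day 30 or with the length offset. The CHAF1A rise also ended without any 1 of day 30 replicates 1, 2 and 4 or day 45 replicate 1.

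The 4 E2F transcription factors all fell at day 30 against day 21 (median -2.20) and were all lower at day 45 than at day 21 (median -1.53), and E2F1 and E2F7 rose at day 45 against day 30. E2F1 (ENSG00000101412, chromosome 20, 33675683 to 33686404, minus strand), an activator of S phase genes, had 18.2, 18.5, 18.3 and 18.9 CPM at day 21, 6.31, 4.1, 9.12, 8.33 and 10.3 CPM at day 30, and 17.8, 12.2, 10.1, 13 and 10.4 CPM at day 45. Day 45 replicate 3 was below day 30 replicate 5, and all libraries of days 30 and 45 were below day 21. E2F1 fell by 1.27 ± 0.20 at day 30 (edgeR adjusted p = 6.37e-05) and rose by 0.73 ± 0.20 at day 45 against day 30 (adjusted p = 0.00495; 0.29, adjusted p = 0.417, with day 45 replicate 1 placed at day 30). It gave -0.54 ± 0.20 at day 45 against day 21 (adjusted p = 0.0282), a call that ended without any 1 of day 21 replicates 2 and 4 or day 45 replicates 2, 3 and 5 (adjusted p 0.0526 to 0.0707), and with day 45 replicate 1 placed at day 30 (0.0645).

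E2F8 stayed low at day 45. E2F7 and E2F8 are repressors that switch S phase genes off again. E2F8 (ENSG00000129173, chromosome 11, 19224063 to 19241620, minus strand) had 5.36, 6.86, 6.65 and 7.4 CPM at day 21, 1.26, 1.01, 1.71, 1.39 and 1.38 CPM at day 30, and 1.3, 1.58, 0.918, 2.02 and 1.15 CPM at day 45. Days 30 and 45 overlapped far below day 21. E2F8 fell by 2.27 ± 0.21 at day 30 (edgeR adjusted p = 1.37e-07) and gave -2.24 ± 0.21 at day 45 against day 21 (adjusted p = 6.49e-08), the largest difference of the 50 genes in that comparison. Day 45 against day 30 gave 0.03 ± 0.22 (adjusted p = 0.902), with -0.13 under the length offset. E2F7 fell by 2.71 ± 0.19 at day 30 and rose by 1.32 ± 0.18 at day 45 against day 30. The rise of E2F7 did not pass with day 45 replicate 1 placed at day 30. E2F2, an activator, gave -1.67 ± 0.20 at day 45 against day 21 and did not pass at day 45 against day 30 (0.46 ± 0.21, adjusted p = 0.0731).

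The order of levels per length differed between days. At day 21 PCNA averaged 120.9 ± 17.6 TPM, TYMS 120.4 ± 19.6 TPM, MCM7 98.98 ± 8.71 TPM, RRM2 97.2 ± 10.8 TPM and TK1 85.5 ± 13.3 TPM (SD, n = 4), and PCNA and TYMS, MCM7 and RRM2, and RRM2 and TK1 differed by less than the larger SD of the pair. At day 30 PCNA (37.5 ± 3.48 TPM), TYMS (36.3 ± 5.70 TPM) and RPA1 (32.3 ± 2.33 TPM) led (SD, n = 5). At day 45 RPA1 led with 52.8 ± 2.65 TPM, beside PCNA with 50.3 ± 4.02 TPM and TYMS with 46.6 ± 8.57 TPM (SD, n = 5). The lowest at day 30 was E2F7 with 0.368 ± 0.0912 TPM. The count of a gene in a library was 88 to 3877 in day 21 libraries, 15 to 1189 in day 30 libraries and 25 to 2037 in day 45 libraries, and 23 of the 50 genes had under 100 counts in at least 1 day 30 library.

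Libraries of 1 day differed across the genes. Day 30 replicate 2, the shallowest library, was the lowest of its day for 39 of the 50 genes, and day 30 replicate 5 was the highest for 33. At day 45 replicate 1 was the highest for 29 genes and replicate 4 for 19. At day 21 replicate 4 was the highest for 36 genes. Across the 50 genes, the log2 fold change had a Spearman correlation with effective length of -0.53 at day 30 against day 21, 0.41 at day 45 against day 30 and -0.36 at day 45 against day 21. The same correlations were -0.25, -0.09 and -0.33 with an offset for length, and -0.47, 0.33 and -0.36 with day 30 replicates 1 and 2 alone. The genes share the libraries, so these correlations describe the fit and carry no test.

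The other genes of replication were mixed. At day 45 against day 21, 30.5% of all genes tested were lower and 27.1% higher, the shares to set beside this list and those below. Of 30 further replication genes, 20 fell and 1 rose at day 30 against day 21 (median -0.53), 10 rose and 3 fell at day 45 against day 30 (median 0.19), and 15 were lower and 4 higher at day 45 than at day 21 (median -0.43). TICRR, which starts origin firing, gave -1.91 ± 0.14 at day 45 against day 21 (edgeR adjusted p = 3.61e-09), and DNA2, a nuclease-helicase, gave -1.21 ± 0.16 (adjusted p = 3.62e-06). CHTF18, of an alternative clamp loader, and DBF4B, an activator of the kinase CDC7, had values of -1.36 ± 0.17 and -1.19 ± 0.14. The 4 that were higher, named after their values were seen, were ORC3 (0.42 ± 0.13), POLD2 (0.27 ± 0.11), POLD4 (0.56 ± 0.14) and POLE3 (0.49 ± 0.10). Of 15 further genes of S phase nucleotides and chromatin, 11 were lower and 1 was higher at day 45 than at day 21 (median -0.44), with the histone chaperone NASP at -1.57 ± 0.12. The 1 that was higher, also named after its value was seen, was RRM2B (1.06 ± 0.19), the ribonucleotide reductase subunit that works outside S phase and is induced by p53.

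The mitotic genes all fell. Of 24 genes of mitosis, all 24 fell at day 30 against day 21 (median -1.84), 12 rose and 12 did not pass at day 45 against day 30 (median 0.37), and all 24 were lower at day 45 than at day 21 (median -1.55). CENPF, a kinetochore protein, gave -2.14 ± 0.13 at day 45 against day 21 (edgeR adjusted p = 3.51e-10), and cyclin B1, CCNB1, gave -1.73 ± 0.15 (adjusted p = 2.93e-08). The spindle motor KIF11 and the checkpoint kinase BUB1B gave -1.74 ± 0.15 and -1.82 ± 0.16. Summed TPM of the list was 1038 to 1265 (day 21), 196.9 to 290.2 (day 30) and 257.6 to 358.4 (day 45). The difference between the mitotic and the replication genes was not tested.

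Regulators of entry into S phase were mixed. Of 15 G1/S cyclins, kinases and regulators, 8 fell and 3 rose at day 30 against day 21 (median -0.42), and 8 rose at day 45 against day 30 (median 0.46). At day 45 against day 21, 6 were lower and 5 higher (median -0.17), beside 30.5% and 27.1% of all genes tested. Of all genes tested, 27.1% fell and 27.2% rose at day 30 against day 21, and 27.6% rose at day 45 against day 30. The list was not tested against these shares. Cyclin D1, CCND1, and its kinase CDK6 were 2.27 ± 0.15 and 1.12 ± 0.17 higher at day 45 than at day 21 (edgeR adjusted p = 9.43e-10 and 3.18e-05). Cyclin A2, CCNA2, and FBXO5, an inhibitor of the anaphase-promoting complex, gave -1.28 ± 0.17 and -0.99 ± 0.14. In the list of E2F, DP and pocket proteins, 9 of 14 fell at day 30, 7 rose and 1 fell at day 45 against day 30, and 9 were lower and 1 was higher at day 45 than at day 21. FOXM1, a driver of mitotic genes, was at 0.352 times its day 21 level at day 45 (adjusted p = 1.03e-06).

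Of 7 CDK inhibitors, which hold cells back from S phase, 6 passed the filter on low counts. At day 30 against day 21, 2 rose (median 0.14), at day 45 against day 30 all 6 rose (median 0.66), and at day 45 against day 21 5 were higher (median 0.87). CDKN1A, p21, was 2.55 ± 0.09 higher at day 45 than at day 21 (edgeR adjusted p = 2.47e-12), and CDKN1C, p57, was 2.53 ± 0.15 higher (adjusted p = 1.98e-10).

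**Figure D4:**
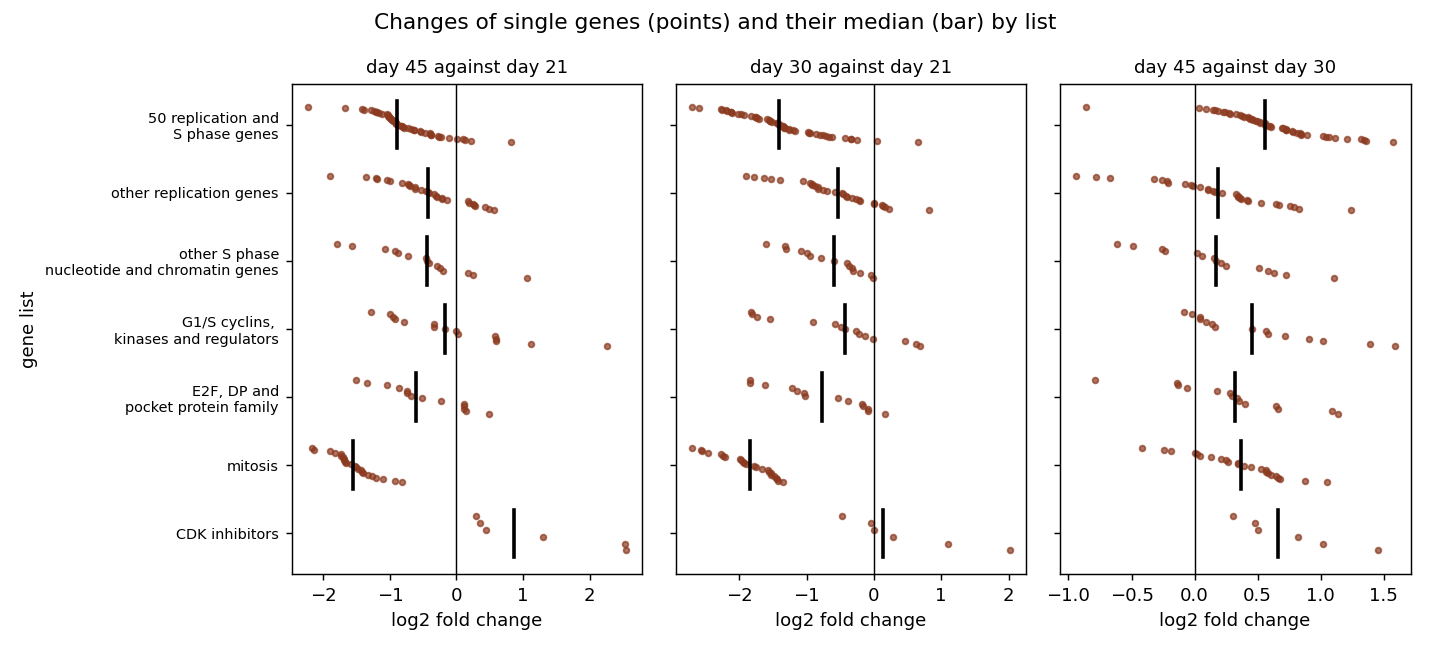
Log2 fold changes of single genes (points) in the 50 replication and S phase genes and 6 other lists, with a bar at the median of each list, in the 3 comparisons. All mitosis points lie below 0 at day 45 against day 21 and day 30 against day 21, and all points of the CDK inhibitors lie above 0 at day 45 against day 21 and day 45 against day 30.

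Markers of the cells changed over the same days. The summed TPM of 15 chondrocyte markers was 26560 to 30750 (day 21), 43810 to 106300 (day 30) and 75330 to 110000 (day 45). COL2A1 reached 74470 TPM and the next highest marker, COL9A1, reached 9208 TPM, so the sum mostly follows COL2A1. At day 30 against day 21, 13 of the 15 markers rose and 2 fell, beside 27.2% and 27.1% of all genes tested. At day 45 against day 30, 4 rose and 4 fell, beside 27.6% and 28.7% of all genes tested. Of 12 pluripotent stem cell markers 10 were under 1 TPM in all libraries, PRDM14 was at 0 counts, and the sum was 19.9 to 24.6 TPM at day 21, 3.42 to 5.21 TPM at day 30 and 0.8 to 2.16 TPM at day 45. DPPA4, at up to 22.3 TPM, made up most of that sum, and it gave -4.61 ± 0.27 at day 45 against day 21 (edgeR adjusted p = 2.89e-10). The defining markers POU5F1, NANOG and SOX2 reached at most 0.53, 0.19 and 0.27 TPM.

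Markers of other tissues were at low sums with the exception of fibrous tissue. The 10 markers of tendon and fibrous tissue summed to 14050 to 16950 (day 21), 8502 to 12410 (day 30) and 9969 to 13470 TPM (day 45). The 12 neural markers summed to 147 to 166.1 TPM at day 21, 78.3 to 110.8 TPM at day 30 and 72.3 to 90.5 TPM at day 45, with 7 of 12 under 1 TPM in all libraries and SOX1 at 0 counts. Endothelial and blood markers summed to 21.7 to 23.4, 9.37 to 13.3 and 5.71 to 7.13 TPM at days 21, 30 and 45, with 8 of 10 under 1 TPM and CDH5 and HBG1 at 0 counts. Muscle markers summed to 12.6 to 30.8 TPM over all days, with 6 of 9 under 1 TPM and MYF5 at 0 counts, and epithelial markers to 52.1 to 110.6 TPM, with 3 of 7 under 1 TPM. The 8 immediate early and stress genes summed to 212.9 to 234.8 TPM at day 21, 180.1 to 257.4 TPM at day 30 and 450.1 to 665 TPM at day 45. The part of these cells and of handling of the pellets in the changes of the replication genes was not tested.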

How the data were processed

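RNA of whole pellets was measured in 14 libraries made, per the labels' protocols, with the RNeasy micro kit and the TruSeq RNA Library Prep Kit v2, which does not mark the strand. The deposited tables hold RSEM expected counts per gene and TPM per gene and effective lengths, and per the submitters' processing notes STAR 2.4.2a, RSEM 1.2.25 and GRCh38 were used. Which annotation release served RSEM is not given in the sources here. Coordinates and symbols are from GENCODE 29, in which 60333 of 60587 IDs had a symbol, and promoters are from RefSeq.

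Expected counts were rounded. Genes were kept by filterByExpr with the day as group (17838 genes, all 50 members), scaled by TMM and tested with edgeR 4.0.16 (R 4.3.3), using robust quasi-likelihood fits with 1 mean per day over all 14 libraries and Benjamini-Hochberg adjustment over all genes tested, with calls below 0.05. SE is the size of the log2 fold change divided by the square root of F. The scripts were tested on simulated data. The 50 genes and the other lists were chosen with earlier results of these data known. Every library's value is given for the gene of each role with the highest mean TPM, the one with the largest change at day 45 against day 21, any called higher in that comparison, and up to 3 of each sign with the smallest p for the later minus the earlier change. From other lists, up to 4 genes with the smallest adjusted p at day 45 against day 21 are named.

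In all, 11 alternatives beside 14 fits that leave out 1 library were run, with DESeq2 1.42.0 and limma 3.58.1 on log2(TPM + 1) and log2(TPM + 0.1) among them. The offset for effective length was a lowess curve (span 0.5) per library. The curve was fitted to deviations in log2 CPM over the log2 mean effective length of each gene. FPKM values were not used. Expression of a gene within a library is limited by its counts, and no library was counted more than once.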

Additional observations from a re-analysis of the deposited data

Results flagged for a closer look

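Among the 150 groups formed by a gene and a day, 7 had a library far from the others by Dixon's test, which chance flags in about 1 in 20 groups. MCM2 had 58.2 CPM in day 21 replicate 4, against 48.1 to 49.8 CPM in the other day 21 libraries. RPA2 had 30.2 CPM in the same library, against 23.8 to 24.5 CPM in the others of its day. E2F7 had 9.67 CPM in day 21 replicate 3, against 8.19 to 8.34 CPM in the others. At day 30, POLA1 had 9.68 CPM in replicate 1 against 6.9 to 7.34 CPM, RFC4 had 12.9 CPM in replicate 4 against 10.6 to 11.3 CPM, and TIPIN had 2.5 CPM in replicate 3 against 2.95 to 3.11 CPM. UHRF1 had 21.1 CPM in day 45 replicate 1, the library with the label conflict, against 13.1 to 15.2 CPM in the other day 45 libraries.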

How the results depend on the processing

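Of 1782 values of named genes under the alternatives, 1689 kept their direction and their side of the threshold, 52 lost a call, 15 gained one and 26 changed sign. Except where named, the cause was not tested. At day 45 against day 21, a test for changes beyond 1.5-fold (glmTreat) called 0 of the 50 genes higher and 23 lower, and 2090 and 2679 of all genes; limma called 2147 higher and 8722 lower of all genes on log2(TPM + 1), and 2124 and 8646 on log2(TPM + 0.1). At day 30 against day 21, 0 of the 50 genes rose on either TPM scale, with glmTreat, and with day 30 replicates 1 and 2 alone, with or without day 45 replicate 1; of all genes, 1788 rose and 9019 fell on log2(TPM + 1), 1750 and 8886 on log2(TPM + 0.1), and 1751 and 1954 with glmTreat. At day 45 against day 30, 12 of the 50 genes and 3036 of all genes rose with day 45 replicate 1 placed at day 30, 9 and 1374 rose with glmTreat (2149 of all fell), and 3390 of all fell with day 30 replicates 1 and 2 alone and no day 45 replicate 1. For the later minus the earlier change, 0 of the 50 genes were called below 0 on both TPM scales and with that library placed at day 30. The same held with day 30 replicates 1 and 2 alone, with or without day 45 replicate 1. GINS3 had a value below 0 in each of these fits but did not pass. Of all genes, 7354 were called above and 2326 below 0 on log2(TPM + 1), and 7086 and 2353 on log2(TPM + 0.1). With day 30 replicates 1 and 2 alone the counts were 2848 and 2811, and without day 45 replicate 1 as well 2844 and 2775.

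Leaving out 1 library at a time gave, of the 50 genes, 1 to 1 higher and 38 to 43 lower at day 45 against day 21, 1 to 1 and 46 to 48 at day 30 against day 21, and 32 to 42 and 1 to 1 at day 45 against day 30. For the later minus the earlier change, 47 to 48 were called above and 1 to 2 called below 0 (2 without day 30 replicate 1 or 2). Of all genes the ranges were 4373 to 4933 and 4962 to 5527, 4345 to 4917 and 4423 to 5021, 4521 to 5023 and 4387 to 5212, and 4004 to 4644 and 4149 to 4979 in the same order.

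Log2 values that changed sign were as follows. GINS3 at day 30 against day 21 was -0.35 and -0.37 on the TPM scales, -0.0096 with no filter, -0.022 (without day 30 replicate 4) to 0.086 (without day 30 replicate 1) over the fits that leave out 1 library, and -0.082, -0.078, -0.078 and -0.076 with day 45 replicate 1 placed at day 30, day 30 replicates 1 and 2 alone, the same without day 45 replicate 1, and the length offset. At day 45 against day 30, POLD1 was -0.15 and -0.16 on the TPM scales and -0.054 with the library placed at day 30, POLE was -0.061 and -0.066 on the TPM scales and -0.043 with the length offset, TK1 was -0.073 with the library placed at day 30, and E2F8 was -0.13 (without day 45 replicate 4) to 0.15 (without day 45 replicate 3) over those fits, with -0.048 and -0.015 without replicate 2 of day 30 or day 45, and -0.13 with the length offset. RPA1 at day 45 against day 21 was -0.34 and -0.35 on the TPM scales. RPA3 for the later minus the earlier change was 0.026 and 0.027 on the TPM scales, 0.21 and 0.20 with day 30 replicates 1 and 2 alone, with and without day 45 replicate 1, and 0.21 with the length offset.

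Same-numbered libraries shared little deviation, with 2 of 13 correlations over 0.1 (-0.25 to 0.12). The labels do not say whether the numbers pair libraries, and such correlations cannot exclude it. With the replicate block, 1 gene of the 50 was higher and 40 lower at day 45 against day 21, 1 and 46 at day 30 against day 21, and 37 and 1 at day 45 against day 30. Of all 17838 genes tested, the counts were 4551 and 5177, 4356 and 4516, and 4659 and 4860 in the same order. At day 30, 23 of the 50 genes had under 100 counts in a library.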
